A study of Mus musculus with 2 samples.

Results

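CDK inhibitors and growth arrest genes were followed in young mouse embryonic fibroblasts (MEFs) transfected with GapmeR AK156230, an LNA oligonucleotide that makes RNase H cut the lncRNA AK156230, or with the non-targeting GapmeR Control. The set holds 10 genes: the Cip/Kip inhibitors Cdkn1a, Cdkn1b and Cdkn1c, the INK4 inhibitors Cdkn2a, Cdkn2b, Cdkn2c and Cdkn2d, the phosphatase gene Cdkn3, and the growth arrest genes Cgref1 and Btg1. Its members are all probe sets whose platform annotation names exactly 1 of these genes, which gave 15 of the 45037 probe sets on the array, and each of the 10 genes had at least 1. The MEFs of both conditions came from whole C57BL/6 embryos at embryonic day 13.5 and were used at passage 2, and no step that sorts cells is described. Each condition had 1 array and AK156230 was targeted with a single GapmeR. No replicate spread exists, no test was possible, and every difference below is a comparison of those 2 RNA samples.

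Progression through the cell cycle is driven by cyclin-dependent kinases (CDKs) bound to cyclins, and CDK inhibitors hold these kinases back. INK4 proteins bind CDK4 and CDK6 and keep them from D-type cyclins, whereas Cip/Kip proteins bind assembled cyclin-CDK complexes, above all those of CDK2. In cultured MEFs, p16Ink4a, Arf and p15Ink4b from the Cdkn2a and Cdkn2b locus build up with passage, and p21, the product of Cdkn1a, is a transcriptional target of p53. These genes are therefore among the usual markers of arrest and senescence.

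The sequences just upstream of the start sites of Cdkn1a, Cdkn2a, Cdkn2b and Cgref1 are shown because these are the members whose signals differed most in the upward direction. They are 150 bases before the first transcribed base, on the strand of the gene, from RefSeq on GRCm38.p6. Capitals mark matches to the motifs named after them.
Cdkn1a, first start, chr17:29090829-29090978, plus strand: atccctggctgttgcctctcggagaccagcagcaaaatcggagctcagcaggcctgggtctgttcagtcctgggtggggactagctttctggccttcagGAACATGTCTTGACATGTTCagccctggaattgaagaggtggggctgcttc
Cdkn1a, second start, chr17:29093619-29093768, plus strand: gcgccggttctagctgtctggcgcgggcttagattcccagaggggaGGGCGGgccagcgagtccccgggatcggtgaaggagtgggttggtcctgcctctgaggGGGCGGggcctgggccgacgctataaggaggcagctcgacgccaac
Cdkn2a, distal start of the Arf transcript, chr4:89294620-89294769, minus strand: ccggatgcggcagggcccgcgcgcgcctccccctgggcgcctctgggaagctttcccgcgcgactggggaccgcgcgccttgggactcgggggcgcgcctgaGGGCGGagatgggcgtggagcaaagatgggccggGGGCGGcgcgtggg
Cdkn2a, proximal start of the p16Ink4a transcript, chr4:89282193-89282342, minus strand: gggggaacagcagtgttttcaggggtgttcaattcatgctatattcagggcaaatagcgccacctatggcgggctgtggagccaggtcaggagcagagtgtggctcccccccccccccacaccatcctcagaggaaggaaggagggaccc
Cdkn2b, chr4:89311033-89311182, minus strand: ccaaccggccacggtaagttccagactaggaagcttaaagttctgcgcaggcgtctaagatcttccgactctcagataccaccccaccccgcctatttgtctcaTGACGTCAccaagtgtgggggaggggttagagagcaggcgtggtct
Cgref1, first start, chr5:30945481-30945630, minus strand: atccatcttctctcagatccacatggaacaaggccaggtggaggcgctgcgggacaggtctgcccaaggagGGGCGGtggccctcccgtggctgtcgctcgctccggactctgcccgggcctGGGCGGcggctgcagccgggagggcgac

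Motifs were searched on both strands in the 250 bases before each start, in 13 windows of 9 of the genes. A p53 element, the 20-base consensus with at most 1 mismatch, lay from -51 to -32 before the first start of Cdkn1a, and 0.0761% of the 32851 promoter windows in the reference held one. GC boxes (GGGCGG) were in 9 of the 13 windows, against 32.7% of all windows, among them the second start of Cdkn1a, the Arf start and both starts of Cgref1. The windows of the Cgref1 starts overlap and share boxes. GC content was 42.8% to 78.4% in the member windows, against a median of 52.4% over all windows, and its part in the matches was not tested. The window of Cdkn2b held a cAMP response element (TGACGTCA) from -46 to -39, which 1.55% of all windows held, and no GC box. An AP-1 site (TGAGTCA, 4.46% of all windows) lay upstream of the printed stretch of Cgref1, from -180 to -174. Of the other motifs searched, TATAAA was in 1 of the 13 windows (12.4% of all windows) and CCAAT in 4 (33.8%). CACGTG was in 1 (6.02%), TTTGAA in 2 (16.0%) and TTTGGCGC in 0 (0.417%). The p16Ink4a window of Cdkn2a held none of the motifs, and no match overlapped another in the stretches printed. These are matches of letters and not measured binding.

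Signals are MAS5 values on a linear scale, and ratios are log2 of GapmeR AK156230 over GapmeR Control with no offset. A gene with several probe sets is represented by the one with the highest mean log2 signal. Of the 15 member probe sets, 2 were at least 2-fold higher and 1 at least 2-fold lower, against 1.45% of all probe sets that were higher and 3.28% that were lower. After both arrays were scaled to the same median these shares were 1.99% and 2.66%. At 1.5-fold, 4 member probe sets were higher and 1 was lower, against 5.49% and 9.37% of all probe sets, and at 3-fold 0 were higher and 0 lower, against 0.355% and 1.13%. The probe sets past 2-fold belonged to Cgref1 (higher) and Cdkn1c (lower), and 12 probe sets of the other 8 genes lay within 2-fold. The median log2 ratio was 0.22 over the 15 probe sets and -0.13 over the 10 genes, against -0.066 over all probe sets and -0.074 over all 18193 named genes. The sign differs because Cdkn1a, Cgref1 and Btg1, all with ratios above 0, carry 7 of the probe sets. By gene, 5 had a log2 ratio above 0 and 5 below it. The genes thus did not move as a block.

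**Figure D1:**
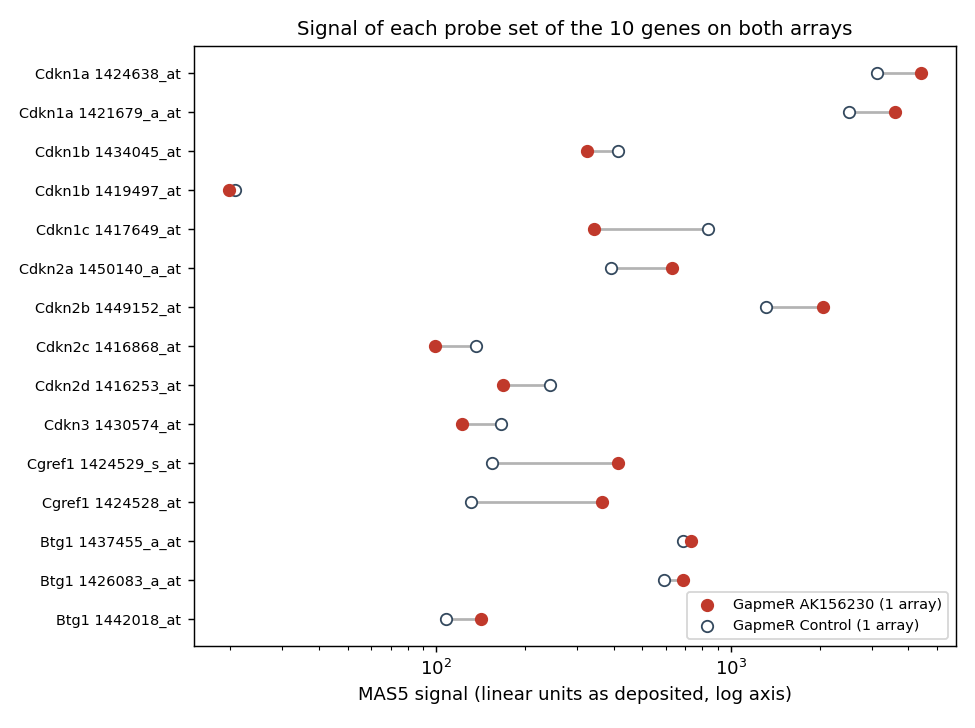
MAS5 signal (log axis) of each of the 15 probe sets of the 10 genes, with a filled point for the GapmeR AK156230 array, an open point for the GapmeR Control array and a line joining them. The widest gaps are those of Cgref1, higher with GapmeR AK156230, and Cdkn1c, lower with GapmeR AK156230.

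Error could only be judged between probe sets. A probe set is called bright below where its signal reached the median of the array on which it was higher (medians of 50.95 with GapmeR AK156230 and 54.8 with GapmeR Control). Over 5113 genes with at least 2 bright probe sets, the SD per probe set was 0.28 on the log2 scale. That value holds differences between probes and not between cultures. In addition, each member was set beside all probe sets whose mean log2 signal lay within 0.25 of its own, called probe sets of like signal below. Of the 15 members, 5 lay outside the middle 95% of their probe sets of like signal: both of Cdkn1a, that of Cdkn2b and both of Cgref1. All member probe sets but 1 of Cdkn1b were bright.

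Among Cip/Kip genes, Cdkn1a and Cdkn1c differed in opposite directions and Cdkn1b was closer to even. Cdkn1a, on chromosome 17 from 29090979 to 29100722, had signals of 4408.28 with GapmeR AK156230 and 3121.94 with GapmeR Control at probe set 1424638_at. At its other probe set, 1421679_a_at, the signals were 3603.75 with GapmeR AK156230 and 2518.86 with GapmeR Control. The log2 ratios of 0.50 and 0.52, that is 1.41-fold and 1.43-fold, differed by 0.019, well under the spread between probe sets. They were under the 2-fold threshold, yet few probe sets of like signal were that high, while the ranges reached further below 0 than above it. The first was the highest of 169 probe sets of like signal, whose middle 95% lay between -0.51 and 0.20, and the second was the highest of 208, with a range from -0.82 to 0.27. Cdkn1a is one of the genes that the study took from these arrays for RT-qPCR, so that choice was not independent of its values here.

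Cdkn1c encodes p57, an inhibitor expressed from the maternal allele in the imprinted region of distal chromosome 7. Its single probe set, 1417649_at, had a signal of 341.74 with GapmeR AK156230 and 832.9 with GapmeR Control, 2.44-fold lower (log2 ratio -1.29). Of 1470 probe sets of like signal, 38 were at least as low, itself included, and the value lay at the edge of their middle 95%, which began at -1.29. Cdkn1c spans 2.72 kb (chromosome 7, from 143458339 to 143461059). Of bright genes up to 10 kb long 2.36% were lower by at least 2-fold, against 14.8% of bright genes over 80 kb. The members spanned 2.72 to 20.1 kb.

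Cdkn1b encodes p27, which accumulates in quiescent cells. Probe set 1434045_at had signals of 323.88 with GapmeR AK156230 and 414.53 with GapmeR Control, a log2 ratio of -0.36. Its dim probe set, 1419497_at, had 19.72 with GapmeR AK156230 and 20.79 with GapmeR Control, and its log2 ratio of -0.076 turned above 0 with either rescaling of the arrays and with the loess correction. Both values lay inside the middle 95% of probe sets of like signal. A difference in Cdkn1b was not detectable with 1 array per condition.

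**Figure D2:**
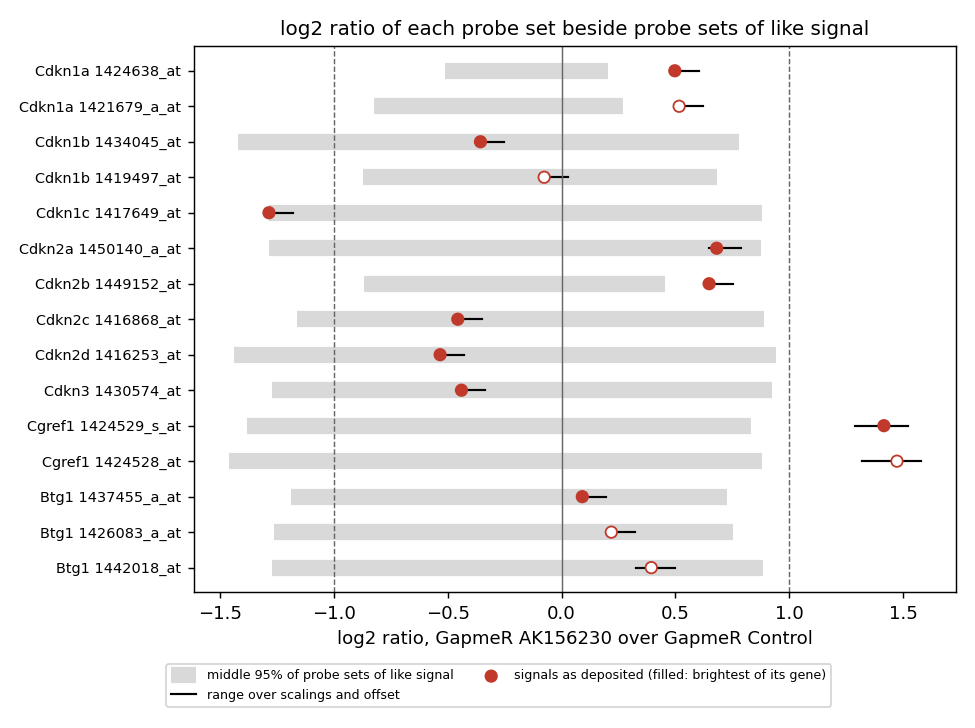
log2 ratio (GapmeR AK156230 over GapmeR Control) by probe set (points, filled for the brightest of a gene), with the range over scalings and an offset (black lines), the middle 95% of probe sets of like signal (grey bars) and dashed lines at 2-fold. Both probe sets of Cdkn1a, the probe set of Cdkn2b and both of Cgref1 lie to the right of their grey bars, and Cdkn1c lies at the left end of its bar.

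The INK4 genes differed in direction, and among them only Cdkn2b lay outside the middle 95% of its probe sets of like signal. Cdkn2a and Cdkn2b, 11.7 kb apart on chromosome 4, were both higher by about the same factor, while Cdkn2c, elsewhere on chromosome 4, and Cdkn2d, on chromosome 9, had ratios below 0. Cdkn2a, which encodes p16Ink4a and, from another reading frame, the p53 activator Arf, had a signal of 630.26 with GapmeR AK156230 and 392.92 with GapmeR Control (probe set 1450140_a_at). This is 1.60-fold, a log2 ratio of 0.68. Of 1590 probe sets of like signal 66 were at least as high, so the value is inside their middle 95%, which reached 0.87. Probe sets with this suffix are shared by transcripts of 1 gene, so the p16Ink4a and Arf transcripts cannot be told apart.

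Cdkn2b encodes p15Ink4b, an inhibitor induced by TGF-beta in human epithelial cells. Its signal was 2058.34 with GapmeR AK156230 and 1313.17 with GapmeR Control at probe set 1449152_at, 1.57-fold higher with a log2 ratio of 0.65. Only 5 of 554 probe sets of like signal were at least as high, itself included, and their middle 95% ended at 0.46. Of all bright genes 6.19% were higher by 1.5-fold or more.

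Neighbours of this locus did not share 1 direction. Mtap, a gene of methionine salvage 93.4 kb from Cdkn2a, had 2176.68 with GapmeR AK156230 and 1340.67 with GapmeR Control, a log2 ratio of 0.70 that is close to those of Cdkn2a and Cdkn2b. Of 7 bright genes within 1 Mb of Cdkn2a, Cdkn2b and Mtap included, 3 had log2 ratios above 0 and 4 below. Focad and Hacd4, at the far end of that interval, were 2.65-fold and 2.84-fold lower, and the interferon gene Ifnz was 3.03-fold higher. Mtap, Cdkn2a and Cdkn2b thus lay next to each other among the measured genes with like ratios, and beyond Cdkn2b came the dim gene Dmrta1 (27.77 with GapmeR AK156230 and 15.85 with GapmeR Control). This comparison of neighbours was chosen after the values of Cdkn2a and Cdkn2b were known.

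**Figure D3:**
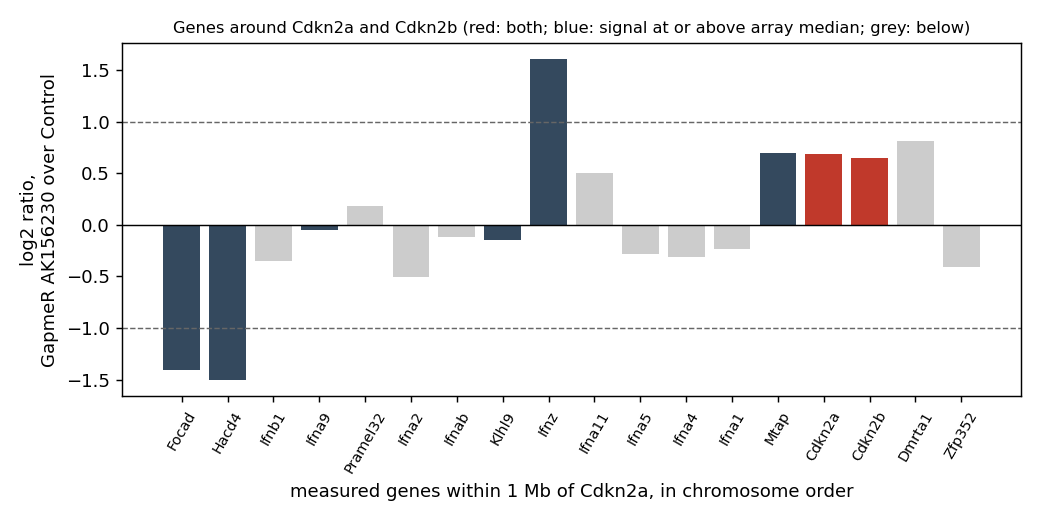
log2 ratio (GapmeR AK156230 over GapmeR Control) (bars, brightest probe set of each gene) for measured genes within 1 Mb of Cdkn2a in chromosome order, with Cdkn2a and Cdkn2b in red, other bright genes in blue and dimmer genes in grey. Mtap, Cdkn2a and Cdkn2b lie between 0.65 and 0.70, while Focad and Hacd4 lie at -1.41 and -1.51.

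Cdkn2c and Cdkn2d encode p18 and p19Ink4d, INK4 proteins that are best known from development and differentiation. Cdkn2c had signals of 99.15 with GapmeR AK156230 and 135.98 with GapmeR Control, a log2 ratio of -0.46. Cdkn2d had 167.98 with GapmeR AK156230 and 243.12 with GapmeR Control, a log2 ratio of -0.53. Cdkn3, a phosphatase that removes the activating phosphate of CDK2 and whose mRNA is high in dividing cells, had 122.47 with GapmeR AK156230 and 166.09 with GapmeR Control, a log2 ratio of -0.44. All these values were within 2-fold and inside the middle 95% of probe sets of like signal, as 448 of 3055, 283 of 2424 and 451 of 2791 such probe sets were at least as low. Each gene had 1 probe set, so no second measurement on the arrays bears on them.

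Cgref1 showed the largest difference of the set. It encodes a secreted protein with EF hands that restrains the growth of cultured cells when overexpressed, and lies on chromosome 5 from 30933143 to 30945480. At probe set 1424529_s_at the signal was 413.24 with GapmeR AK156230 and 154.82 with GapmeR Control, 2.67-fold higher. At probe set 1424528_at it was 363.47 with GapmeR AK156230 and 130.87 with GapmeR Control, 2.78-fold higher. The log2 ratios of 1.42 and 1.47 were 0.057 apart, so both probe sets gave the same difference within the spread between probe sets. The annotation lists the same source sequence for both, and both were read on the same 2 RNA samples. Over the whole array 0.520% and 0.451% of probe sets were at least as high, and 11 of 2305 and 11 of 2397 of like signal. The adjacent genes were within 2-fold, as Khk, 1.90 kb away, had a log2 ratio of -0.18 and the dim Abhd1, on the other side, one of -0.23. Of 38 bright genes within 1 Mb, 1 was at least 2-fold higher and 4 were at least 2-fold lower, among them Emilin1, 11.9 kb away, at 2.27-fold lower. Over all named genes, bright or not, 1.59% were higher and 3.85% lower to that degree. Atraid and Mpv17, 103.2 and 195.2 kb away, were 13.8-fold and 13.6-fold lower. Like Cdkn1a, Cgref1 was among the genes that the study chose from these arrays for RT-qPCR.

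Btg1, an anti-proliferative gene of the BTG/TOB family whose product recruits mRNA deadenylation, was nearly even at its brightest probe set, with 732.33 with GapmeR AK156230 and 687.43 with GapmeR Control (1437455_a_at). The other probe sets had 687.52 with GapmeR AK156230 and 590.75 with GapmeR Control (1426083_a_at), and 141.2 with GapmeR AK156230 and 107.42 with GapmeR Control (1442018_at). The log2 ratios of 0.091, 0.22 and 0.39 had the same sign. Their range was 0.30, where the SD per probe set over genes with at least 2 bright probe sets was 0.28. All lay inside the middle 95% of their probe sets of like signal.

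**Figure D4:**
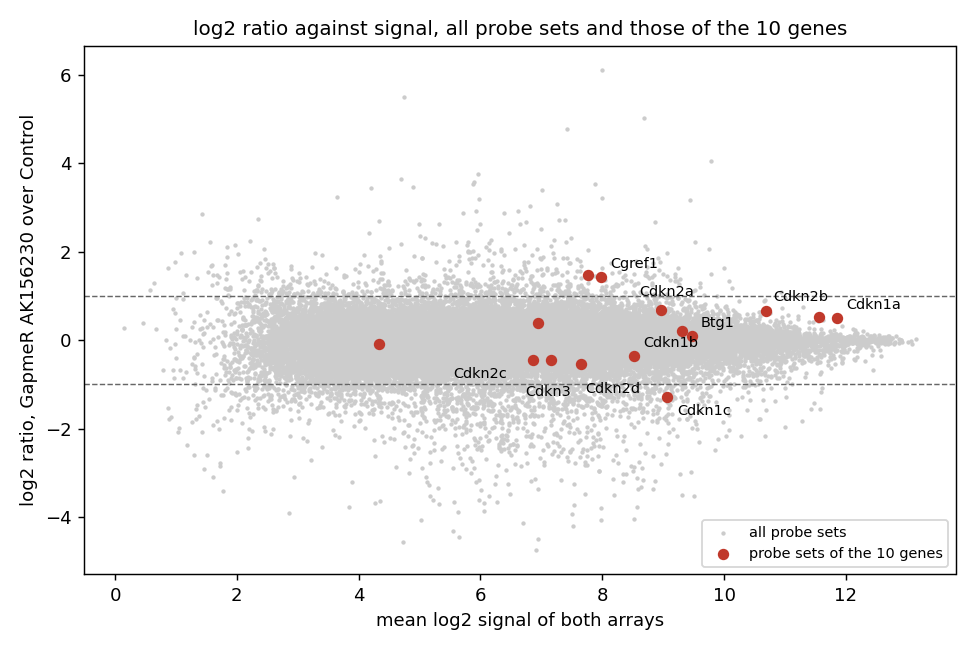
log2 ratio against mean log2 signal for all 45037 probe sets (grey) and the 15 probe sets of the 10 genes (red, brightest of each gene labelled), with dashed lines at 2-fold. The cloud narrows at high signal, where Cdkn1a and Cdkn2b lie at its upper edge although they are within 2-fold.

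The kinases and cyclins that these inhibitors bind were within 2-fold at their brightest probe sets, apart from 1 cyclin. Of 11 measured genes of 12 CDKs and cyclins, 1 was at least 2-fold higher and none at least 2-fold lower, with a median log2 ratio of -0.063, where 1.59% of all genes were higher and 3.85% lower. The higher gene was Ccne2, a partner of CDK2, at 307.37 with GapmeR AK156230 and 136.07 with GapmeR Control, 2.26-fold. Its relative Ccne1 had a log2 ratio of 0.32 and Cdk2 had 0.34, with 0.90 at its other probe set. Of the targets of INK4 proteins, Cdk4 had log2 ratios between -0.47 and -0.40 at its 3 probe sets. Cdk4 was not set beside probe sets of like signal, and the spread between probe sets holds no differences between cultures. Cdk6 had a log2 ratio of -0.27, Ccnd1 0.030, Ccnd2 -0.22 and Ccnd3 -0.063. Cdk1, the mitotic kinase, was at -0.039. No probe set naming Ccnb1 alone was used here.

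Downstream of the CDKs, 13 pocket protein and E2F genes were measured, with a median log2 ratio of 0.25. Among them 2 were at least 2-fold higher and 1 at least 2-fold lower, against 1.59% and 3.85% of all genes. The higher genes were the repressors E2f8, at 276.45 with GapmeR AK156230 and 114.82 with GapmeR Control, and E2f7, at 234.61 with GapmeR AK156230 and 101.3 with GapmeR Control. E2f2, an activator, was lower, at 30.95 with GapmeR AK156230 and 65.65 with GapmeR Control. A second probe set of E2f8 had a log2 ratio of -0.0047, and one of E2f2 was at 0.22. Of 19 measured regulators of CDK inhibitor levels, such as p53 partners, Skp2, which targets p27 for degradation, and Polycomb genes, none was past 2-fold at its brightest probe set and the median was 0.11. Mdm2, the ubiquitin ligase of p53, came closest, with 2205.67 with GapmeR AK156230 and 1187.2 with GapmeR Control (1.86-fold), and its 3 probe sets had log2 ratios between -0.18 and 1.33.

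Among 7 measured genes of the BTG/TOB family and its partners none was past 2-fold, with a median log2 ratio of 0.15. The closest relative of Btg1, Btg2, which was picked out after its value was seen, had 1327.19 with GapmeR AK156230 and 858.82 with GapmeR Control, and its 2 probe sets had log2 ratios of 0.63 and 0.65. Of 16 other growth arrest genes measured, 2 were at least 2-fold higher and 3 at least 2-fold lower, against 1.59% and 3.85% of all genes. Their median was 0.023, and with the probe sets of a gene averaged 1 was higher and 1 lower. Rprm, which acts in G2 arrest, was 2.95-fold higher and Inhba, a subunit of activin, 2.14-fold higher at its brightest probe set but -0.26 on the log2 scale at its other one, and both belong to the genes that the study chose for RT-qPCR. Gas1, named for its expression in arrested fibroblasts, was 7.26-fold lower, with 137.07 with GapmeR AK156230 and 995.8 with GapmeR Control, and its 3 probe sets were between -2.86 and -1.33. Gas2 was 2.66-fold lower, with -0.49 on the log2 scale at its other probe set, and Ndrg1 was 2.22-fold lower, with 5 probe sets between -1.38 and -0.25. Gadd45g, a stress-induced gene, was just inside the threshold at 1.99-fold higher, with 1337.66 with GapmeR AK156230 and 672.37 with GapmeR Control. None of 10 proliferation markers was past 2-fold, and their median was -0.093.

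**Figure D5:**
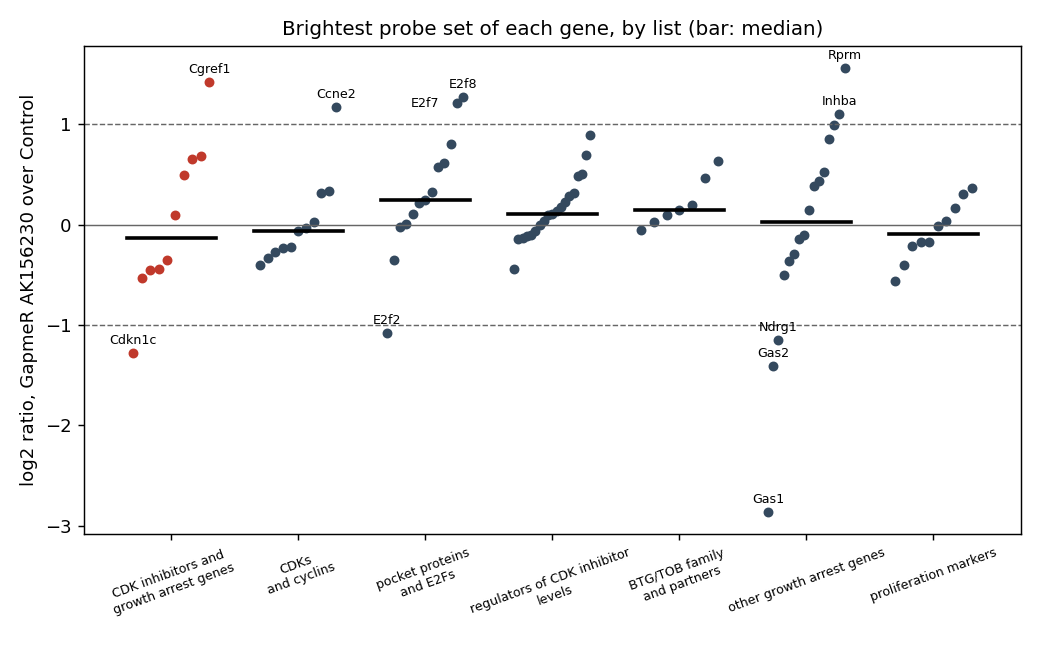
log2 ratio (GapmeR AK156230 over GapmeR Control) for the brightest probe set of each gene, for the 10 CDK inhibitors and growth arrest genes (red) and 6 lists of related genes (blue), with a bar at each median, dashed lines at 2-fold and genes past 2-fold named. The 10 genes span -1.29 (Cdkn1c) to 1.42 (Cgref1), and Gas1 lies lowest at -2.86.

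Some markers of cell types also differed between the arrays, although most were within 2-fold. Over all genes, 1.59% were at least 2-fold higher and 3.85% at least 2-fold lower. Of 10 fibroblast markers, all with signals over the median of each array, 3 (Col3a1, Pdgfra and Pdgfrb) were at least 2-fold lower with GapmeR AK156230. None was higher to that degree. By sign, 9 of the 10 had log2 ratios below 0, with a median of -0.79, against -0.074 over all named genes. The summed signal of the 10 was 26926 with GapmeR AK156230 and 38460.6 with GapmeR Control. Of 24 markers of macrophages, endothelium, epithelium, skeletal muscle and neurons, 3 were higher to that degree (Cd68, Kdr and Krt18) and 1 was lower (Tubb3). By sign, 9 of the 24 had log2 ratios above 0 and 15 below, with a median of -0.27. Of the 6 macrophage markers, 1 (Cd68) was above 0 and 5 were below, and of the 4 endothelial markers 2 were above and 2 below. The summed signal of the 24 was 3131.7 with GapmeR AK156230 and 2929.75 with GapmeR Control. None of these markers had a signal of 0, and 12 of the 24 reached the median on each array. Fewer cells of a type and less RNA per cell cannot be told apart in such samples, and the part of these markers in the values of Cdkn1c, Gas1 and the other genes was not tested.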

How the data were processed

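RNA of MEFs transfected with GapmeR AK156230 or GapmeR Control was hybridized to Affymetrix arrays, 1 per condition. The deposited values are MAS5 signal intensities per probe set, linear and normalized by the authors within each array. The MAS5 version and target value were not stated in these sources. The values run from 1 to 9206.82 and carry no detection calls. The methods name a porcine array, but the probe sets are annotated as mouse genes and that annotation was used. The methods' test for groups of arrays (SAM) needs replicates, so none was run, and precision is limited by having 1 array each. Of the probe sets 34945 name 1 gene, 932 several and 9160 none. The gene name of 34741 probe sets was taken through the Entrez ID. Positions and promoters are from RefSeq on GRCm38.p6.

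The members and lists were chosen with earlier results of these data known. Named list genes are those past 2-fold with a bright probe set and the direct partners of the inhibitors, besides Btg2, Mdm2 and Gadd45g, which were named after their values were seen. Alternatives were scaling to 1 median, quantile normalization, loess (span 0.3), an offset at the 25th percentile of all signals (24.3), other thresholds, the mean of probe sets, a signal minimum, and leaving out _x_at and _s_at probe sets. Motif searches and neighbour comparisons were chosen after values had been seen. Python 3.11.15, numpy 2.4.6, pandas 2.3.3, statsmodels 0.14.6 and matplotlib 3.10.9 were used, and ratios and scalings were tested on simulated data.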

Additional observations from a re-analysis of the deposited data

How the results depend on the processing

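No paired analysis was possible because each condition has 1 array, and for the same reason no array could be left out. Across 64 alternative values of the log2 ratios of the members, none moved by as much as the spread between probe sets (0.28), and 3 turned sign, all of the dim probe set of Cdkn1b. Scaling both arrays to the same median shifted every log2 ratio by 0.11, and Cgref1 then had 1.52 and Cdkn1c -1.18. At 1.5-fold 4 member probe sets were higher and 1 was lower, at 3-fold 0 were higher and 0 lower, and without _x_at and _s_at probe sets 1 was higher, because 1 of the 2 of Cgref1 was left out. With the log2 ratios of a gene's probe sets averaged, 1 pocket protein or E2F gene was higher (E2f7), and 1 other growth arrest gene was higher (Rprm) and 1 lower (Gas1). After scaling to 1 median, quantile normalization or loess, 3 other growth arrest genes were higher, as Gadd45g then had log2 ratios of 1.10, 1.06 and 1.01. The count of lower E2F genes was 0 with that averaging, after scaling to 1 median, quantile normalization or loess, and with the offset.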

Other observations

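Elements that match the p53 consensus, searched for because one lies before the first start of Cdkn1a, were in the windows of 25 genes of the reference. Of these 11 were measured. Besides Cdkn1a, 6 of these had a bright probe set, of which 4 had log2 ratios above 0 and none was past 2-fold in either direction. Their median was 0.088, with a range from -0.62 to 0.63, against -0.060 over all bright genes. Ccng1, which encodes cyclin G1, had 3252.42 with GapmeR AK156230 and 2935.94 with GapmeR Control, a log2 ratio of 0.15. The others were Mthfd1 at 0.63, Calhm2 at 0.41, Rps27l at 0.028, Sptbn4 at -0.17 and Eprn at -0.62. These few values are a description, and the genes were not chosen for their ratios.

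The imprinted neighbours of Cdkn1c differed among themselves. Slc22a18, 12.7 kb away, had 129.79 with GapmeR AK156230 and 157.38 with GapmeR Control, a log2 ratio of -0.28. Phlda2, 40.5 kb away and dim, had 44.34 with GapmeR AK156230 and 23.96 with GapmeR Control, a log2 ratio of 0.89. Kcnq1ot1, the paternally expressed noncoding RNA of the same domain, had a log2 ratio of 0.29, and Igf2, in the adjoining imprinted domain, one of -0.46. Of 23 bright genes within 1 Mb of Cdkn1c, 1 was lower by 2-fold or more (Dhcr7, an enzyme of cholesterol synthesis, at 2.92-fold) and 1 was higher (Tnfrsf23, a TNF receptor relative of the same imprinted cluster, at 2.27-fold). Over all named genes, bright or not, 3.85% were lower and 1.59% higher to that degree. Next to Cdkn1b, the dim noncoding transcript Lockd had signals of 8.44 with GapmeR AK156230 and 21.56 with GapmeR Control, below the median of each array.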
